A study of Mus musculus with 130 samples.

Results

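The 10 genes described here are Apoa4, Lepr and 8 genes of lipid droplets and hepatic fat handling: Cidea, Cidec, Plin2, Plin4, Plin5, Mogat1, Cd36 and G0s2. They were taken from a list of names and matched to Ensembl identifiers, and all 10 were found among the 35274 genes of a diet study and among the 35711 genes of a strain study of mouse liver RNA. The list was drawn up with results of these libraries known: Apoa4 and Lepr were chosen by their CPM difference between chow and the 50 ppm iron diet, so that difference is given below as a description, with no test. The other members are genes of lipid storage and uptake.

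The diet study held 15 libraries from livers of male C57BL/6J mice in 5 groups of 3. The groups were fed chow, whose iron content the labels do not give, a sufficient diet with 50 ppm iron, an elevated diet with 500 ppm iron, a diet with 2% carbonyl iron (20000 ppm), or a 2% carbonyl iron diet whose label names cellulose as the fiber source. No fiber is named for the other diets, so fiber cannot be compared beyond those labels. The strain study held 115 libraries from male mice of 114 inbred and recombinant inbred strains, all on the 2% iron diet for 6 weeks after 4 weeks of chow: 56 BXD strains (from C57BL/6J and DBA/2J), 20 AXB/BXA strains (from A/J and C57BL/6J), 4 BXH strains, 3 CXB strains and 31 other inbred strains. Each strain was 1 mouse, except 129X1/SvJ with 2, so strain and individual mouse cannot be told apart. The strain study had no mice on another diet. The labels give no age, and nothing in them ties libraries of different diets to one another or to a batch.

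A lipid droplet is the organelle in which a cell stores triglyceride, and its surface is covered by proteins that control how much fat goes in and comes out. In hepatocytes the perilipins coat the droplet, the CIDE proteins enlarge droplets by passing lipid from one to another, and G0S2 holds back adipose triglyceride lipase, the enzyme that starts breaking the stored fat down. CD36 carries fatty acids into the cell, and MOGAT1 turns monoacylglycerol into diacylglycerol. Apoa4 encodes an apolipoprotein made in intestine and, in rodents, in liver, where its mRNA is known to follow hepatic triglyceride. Lepr encodes the receptor of the adipose hormone leptin. The short forms of that receptor lack the long cytoplasmic tail of the signalling form, and in mouse liver a soluble form is released into blood.

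The members lie at these positions in GRCm38 (GENCODE annotation): Apoa4 at chr9:46240696-46243459 on the plus strand, Lepr at chr4:101717404-101815352 on the plus strand, Cidec at chr6:113424634-113435760 on the minus strand, Plin2 at chr4:86648386-86670060 on the minus strand, Plin4 at chr17:56100591-56109803 on the minus strand, Plin5 at chr17:56111601-56117596 on the minus strand, Mogat1 at chr1:78510991-78538173 on the plus strand, Cd36 at chr5:17781690-17888801 on the minus strand and G0s2 at chr1:193272161-193273217 on the minus strand. Plin4 and Plin5 are neighbours with 1797 bases between them. Apoa4 shares exon bases with 2 predicted genes on the opposite strand, 634 of them with Gm47528 and nearly as many with Gm10680, neither of which is in the tables. Whether counting used strand is not given in the sources used here, so reads of those partners could not be told from reads of Apoa4.

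The stretches upstream of Apoa4, Lepr, Plin4 and Cd36 are shown here, as RefSeq gives them in GRCm38.p6. Each of these members passed a comparison of diets below, Lepr only against chow, whose libraries had placed it on the list. The stretches were cut so that they stop before any annotated exon of a protein-coding gene, and exons of other genes were not looked at. The Cd36 stretch precedes a RefSeq start that lies inside the GENCODE gene, not its outermost end. They read in the direction of transcription, and capitals in the Apoa4 sequence mark a match to CAAAGTNCA, a form of the site bound by the liver factor HNF4.
Apoa4, chr9:46240594-46240695, plus strand: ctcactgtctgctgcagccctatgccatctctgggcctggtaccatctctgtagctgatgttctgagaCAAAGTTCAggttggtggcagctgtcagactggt
Lepr, chr4:101717204-101717403, plus strand: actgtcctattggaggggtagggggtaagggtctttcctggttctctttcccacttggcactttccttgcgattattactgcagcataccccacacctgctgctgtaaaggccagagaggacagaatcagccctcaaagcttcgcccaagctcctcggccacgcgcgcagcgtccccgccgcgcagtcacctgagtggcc
Plin4, chr17:56109804-56110003, minus strand: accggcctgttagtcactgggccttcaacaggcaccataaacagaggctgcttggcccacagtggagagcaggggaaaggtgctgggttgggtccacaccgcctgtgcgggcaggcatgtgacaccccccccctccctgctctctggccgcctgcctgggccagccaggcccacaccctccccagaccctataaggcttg
Cd36, chr5:17835897-17836096, minus strand: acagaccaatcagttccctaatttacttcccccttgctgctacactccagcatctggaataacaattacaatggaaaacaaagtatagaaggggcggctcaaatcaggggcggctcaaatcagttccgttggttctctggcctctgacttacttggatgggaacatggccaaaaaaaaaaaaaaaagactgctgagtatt

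Of the 10 members, 9 matched the RefSeq promoter table, with 12 windows running from 250 bases before a start to 50 after it. Motifs were searched on both strands in these windows and in all 32851 windows of the table. CAAAGTNCA was found in 1 of the 12 member windows, that of Apoa4, and in 1.41% of all windows. AGGTCA, to which a single nuclear receptor can bind, was found in 4 member windows, belonging to Cd36, Plin2 and Plin5, and in 16.3% of all windows. The full element of the peroxisome proliferator-activated receptors was in none of the 12 and in 0.381% of all windows. TTGCNNAA, a C/EBP site, was in a window of Cidec and of Lepr and in 10.8% of all, and the E-box CACGTG was in a Plin2 window and in 7.15% of all. TGACGTCA (a cyclic AMP response element), TTCNNNGAA (a STAT site) and the glucocorticoid response element were in no member window and in 1.79%, 8.30% and 0.475% of all windows. A match describes the letters only.

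The 15 diet libraries held 10.4 M to 20.4 M estimated counts each, and the 115 strain libraries 9.41 M to 20.6 M. The deepest diet library, 500 ppm replicate 2, stood apart from its group, at 0.17 on a first principal component where the other 2 were at 35.01 and 33.02, and counts of members that rest on it are given without it below. In the strain study the library labelled BXD65/RwwJ held 3.90 CPM (counts scaled to a common library size) over Y-linked genes, against at least 118 in every other library, though its label says male. Hepatocyte markers (Alb, Ttr and 6 others) summed to between 72027 and 97886 CPM in every diet library, of which Alb alone held 50755 to 77567 CPM. Of these markers only Cyp2e1 and Serpina1c were called (adjusted p under 0.05) on the 2% iron diets against 50 ppm, both lower. Without single libraries the log2 difference of Cyp2e1 ran from -1.18 to -1.01 on 2% iron and from -1.29 to -1.12 with cellulose. That of Serpina1c ran from -0.80 to -0.61 and from -1.93 to -1.60, and its call on 2% iron was lost in 6 alternatives. All values below are means ± SD over n = 3 libraries unless another n is given, and the labels do not say that the libraries of a group came from separate cages or days, so p-values measure the spread between these libraries.

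Apoa4 was higher on both 2% iron diets than on the 50 and 500 ppm diets. On 50 ppm iron its level was 1231, 1830 and 1269 CPM, and on 500 ppm it was 1658, 2023 and 1462 CPM. On 2% iron it was 7807, 4840 and 4189 CPM, and with cellulose it was 10163, 8919 and 5619 CPM. All 6 libraries of the 2% iron diets lay above all 6 of the 50 and 500 ppm diets, while the latter 2 groups overlapped. Apoa4 rose from 1443 ± 336 CPM on 50 ppm to 5612 ± 1928 CPM on 2% iron, by 1.96 ± 0.298 on the log2 scale (SE, edgeR quasi-likelihood test, adjusted p = 0.00115). The 50 ppm libraries are among those on which Apoa4 was chosen, so that p is not independent of the choice. Apoa4 was the only 1 of the 8 members tested that passed in that comparison, where 15.7% of all genes did. Against 500 ppm (1714 ± 284 CPM), in a comparison whose 2 groups hold none of the libraries on which Apoa4 was chosen, though these add to the spread estimated in the fit, it rose by 1.73 ± 0.296 (adjusted p = 0.00276), again the single call among 8 members beside 11.3% of all genes. In a fit of those 2 groups alone its adjusted p was 0.0116, and over all alternatives it lay between 8.20e-08 and 0.0184. Leaving out 500 ppm replicate 2 kept Apoa4 as the 1 call. The median log2 change of the 8 members was -0.01 against 50 ppm and -0.10 against 500 ppm, and that of all genes against 50 ppm was 0.01.

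Between 500 and 50 ppm no member passed the test, and neither did any other gene (0.00% of 13560). In edgeR 428 of the 13560 genes had an unadjusted p under 0.05, a smaller share than the 0.05 that arises with no difference. DESeq2 called 0 genes and limma called 1 or 3, depending on its pseudocount. The log2 difference of Apoa4 was 0.24 ± 0.288 and that of Lepr 0.08 ± 0.479.

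On chow Apoa4 was lowest, at 121, 127 and 212 CPM (153 ± 50.97). No chow library came near the 50 ppm libraries, the lowest of which held 1231 CPM. The log2 difference of chow from 50 ppm, from which Apoa4 was chosen, was -3.23 ± 0.314, in a comparison where 0.391% of all genes passed. Against the same 3 chow libraries Apoa4 was higher by 3.47 ± 0.317 on 500 ppm and by 5.20 ± 0.344 on 2% iron. These comparisons share the chow libraries that placed it on the list, and nothing is read from them.

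Lepr passed the test in no comparison made among the 4 defined diets. Lepr mRNA was 24.7, 70.1 and 57.9 CPM on 50 ppm, 32.6, 93.7 and 35.4 on 500 ppm, 59.2, 58.4 and 37.1 on 2% iron, and 28.5, 49.1 and 103 on 2% iron with cellulose. These 4 groups overlapped throughout. The log2 difference of 2% iron from 50 ppm was 0.02 ± 0.482 (adjusted p = 0.979) and that of 2% iron from 500 ppm was -0.06 ± 0.478 (adjusted p = 0.960). The SE of about 0.48 on the log2 scale leaves room for a sizeable change in either direction.

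On chow all 3 libraries had little Lepr mRNA, at 3.96, 3.50 and 5.31 CPM (4.26 ± 0.942), below every one of the other 12 libraries. The log2 difference from 50 ppm (50.9 ± 23.5 CPM) was -3.56 ± 0.585, in the comparison that placed Lepr on the list. With the same chow libraries, 500 ppm was higher by 3.64 ± 0.583 and 2% iron by 3.58 ± 0.585. The 2 members past the threshold against chow were in each case Apoa4 and Lepr, which these chow libraries had chosen, so nothing is read from that count. Of all genes 0.590% passed for 500 ppm and 22.8% for 2% iron. The other 6 members tested differed from 50 ppm on chow by between -0.32 and 0.10, and their groups overlapped.

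**Figure D1:**
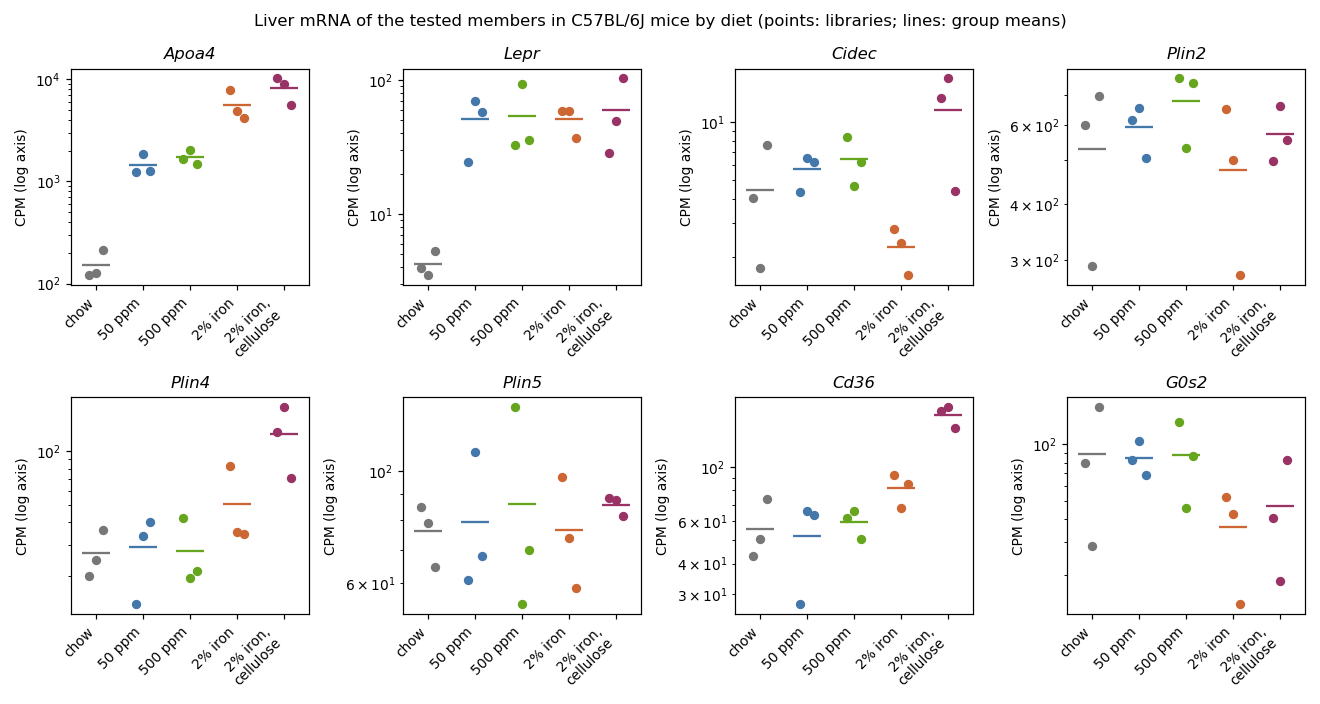
CPM of the 8 members tested in each of the 15 diet libraries (points, log axis) by diet group, with the group mean as a line. Apoa4 steps up from chow (121 to 212 CPM) through 50 and 500 ppm to 2% iron (4189 to 7807 CPM), and Lepr is low on chow alone.

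The perilipins that coat the droplet differed from one another. Plin4, a perilipin with many copies of a short amphipathic repeat, held 13.96, 33.6 and 40.1 CPM on 50 ppm and 82.3, 35.3 and 34.2 CPM on 2% iron, with overlapping groups (log2 difference 0.79 ± 0.461, adjusted p = 0.270). On 2% iron with cellulose it held 128, 176 and 70.6 CPM, above all 50 ppm libraries. Plin4 rose there by 2.09 ± 0.467 over 50 ppm, from 29.2 ± 13.6 to 125 ± 52.8 CPM (edgeR, adjusted p = 0.00503).

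Plin2, the perilipin found on droplets of most tissues, held between 278 and 761 CPM over all 15 libraries. No comparison of it passed the test, and its groups overlapped in all 8 contrasts of diets. Within chow alone it was 600, 292 and 695.4 CPM. Plin5, which ties droplets to mitochondria, ran from 54.6 to 134 CPM, with both extremes in the 500 ppm group. Its log2 difference from 50 ppm was -0.05 ± 0.292 on 2% iron and 0.11 ± 0.291 with cellulose.

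The CIDE gene Cidec was lowest on 2% iron and highest with cellulose. It held 4.33, 6.51 and 6.26 CPM on 50 ppm, 2.81, 2.38 and 1.62 CPM on 2% iron, and 13.4, 16.8 and 4.41 CPM on 2% iron with cellulose. The 2% iron group overlapped neither the 50 ppm nor the cellulose group. Against 50 ppm 4 of the 8 members did not overlap (Apoa4, Cidec, Cd36 and G0s2), beside 37% of all genes, and against 500 ppm 3 (Apoa4, Cidec and Cd36), beside 30.4%. Against 50 ppm the log2 difference was -1.32 ± 0.533 and did not pass (adjusted p = 0.111), and against 500 ppm it was -1.47 ± 0.522 (adjusted p = 0.0869). Between both 2% iron diets Cidec differed by 2.33 ± 0.514 (adjusted p = 0.101). Without the third cellulose library, the lowest of its group, all 3 of these comparisons passed, with adjusted p of 0.0492, 0.0370 and 0.0133 in edgeR. Over all alternatives run the adjusted p lay between 0.0140 and 0.283, between 0.0286 and 0.365, and between 0.00137 and 0.382. The direction of these 3 differences was the same in every alternative run, and the call was not.

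Cd36, the fatty acid carrier, stood at 27.3, 65.8 and 63.2 CPM on 50 ppm and at 92.9, 67.5 and 85.1 CPM on 2% iron. The groups did not overlap, and the log2 difference of 0.66 ± 0.270 did not pass (adjusted p = 0.119). With cellulose Cd36 was at 169, 176 and 145 CPM, higher than in any other library of the diet study. It rose by 1.65 ± 0.273 over 50 ppm, from 52.1 ± 21.5 to 163 ± 16.6 CPM (edgeR, adjusted p = 8.35e-04).

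G0s2, the lipase inhibitor, varied widely within groups. On chow its 3 libraries held 79.1, 28.7 and 158 CPM, a range that covers the means of all 5 groups. It held 82.3, 104.02 and 68.8 CPM on 50 ppm and 52.4, 42.8 and 14.1 CPM on 2% iron, which do not overlap, with a log2 difference of -1.22 ± 0.626 (adjusted p = 0.208). Mogat1 had between 3 and 11 counts in a library (0.240 to 1.07 CPM), and Cidea, a CIDE gene of brown fat and of fatty liver, had between 0 and 3. Both were too low for the test, so 8 of the 10 members were tested. All 3 libraries on 2% iron had 0 counts of Cidea. With no filter on low counts edgeR called neither gene for 2% iron against 50 ppm (adjusted p of 0.389 for Cidea and 0.71 for Mogat1). Counts this low leave room for a difference in either gene.

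In the comparison of 2% iron with cellulose against 50 ppm, Apoa4 also rose, by 2.51 ± 0.304 to 8234 ± 2349 CPM (edgeR, adjusted p = 1.25e-04). The members that rose were thus Apoa4, Plin4 and Cd36, 3 of 8, where 29.7% of all genes passed and 15.4% rose. The same 3 did not overlap between these groups, beside 44.5% of all genes. This comparison and that of 2% iron use the same 50 ppm libraries, which with the chow libraries had placed Apoa4 on the list. The call of Apoa4 in both is thus not independent of that choice. The log2 differences of both stand side by side here: 2.51 and 1.96 for Apoa4, 2.09 and 0.79 for Plin4, 1.65 and 0.66 for Cd36, 1.01 and -1.32 for Cidec. When both 2% iron diets were compared directly, 0 of the 8 members passed in edgeR, beside 11 of 13560 genes (0.0811%), with 1757 genes at an unadjusted p under 0.05. The members that did not overlap between these diets were Cidec, given above, and Cd36, 2 of 8 beside 17.5% of all genes. Cd36 had a log2 difference of 0.99 ± 0.268 (adjusted p = 0.159). The log2 difference was 1.30 ± 0.452 for Plin4 (adjusted p = 0.257), and that of Apoa4 was 0.55 ± 0.288 (adjusted p = 0.438). DESeq2 called Cidec and Cd36 (adjusted p of 0.00137 and 0.0220), and edgeR with no filter on low counts called Cidec (adjusted p = 0.0367). For Cd36 the adjusted p ran from 0.0220 to 0.477 over the alternatives.

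**Figure D2:**
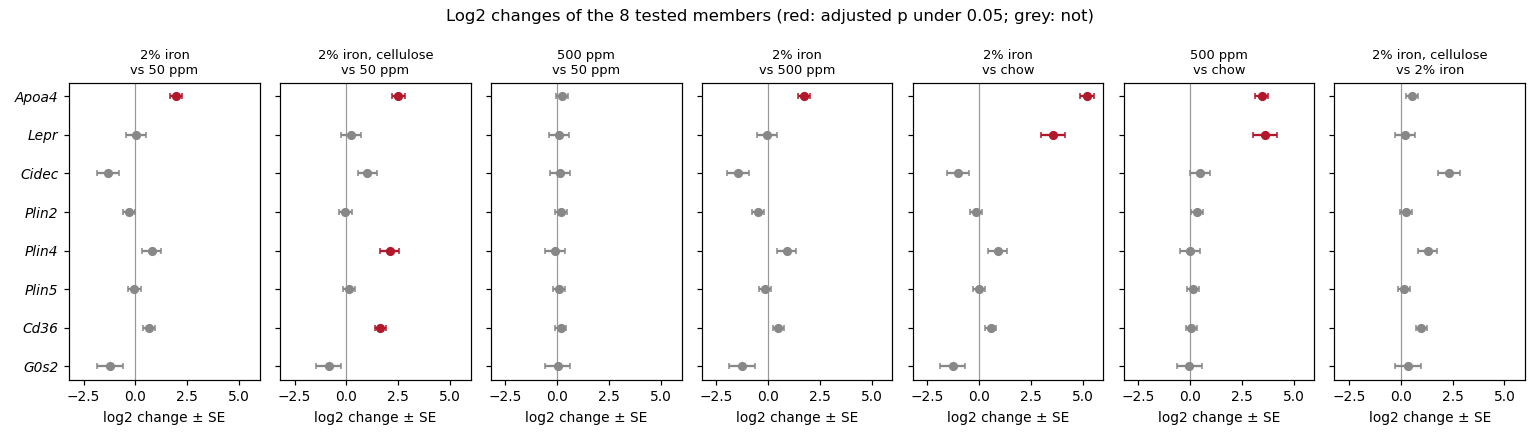
Log2 change (points) ± SE (bars) of each of the 8 members tested, by comparison of diets, red where the adjusted p was under 0.05 and grey elsewhere. Apoa4 lies at 1.96 for 2% iron and at 2.51 for 2% iron with cellulose against 50 ppm, and Plin4 (2.09) and Cd36 (1.65) lie well above 0 for 2% iron with cellulose against 50 ppm. Apoa4 and Lepr are also red against chow, whose libraries had placed them on the list, so nothing is read from their colour there.

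Per transcript length, in the deposited TPM values, Apoa4 was the most abundant member on every defined diet, with 871 ± 224 TPM on 50 ppm and 3539 ± 1255 TPM on 2% iron. Plin2 followed it on 50 ppm with 511 ± 60.5 TPM, then G0s2 with 123 ± 25.7 TPM and Plin5 with 43.4 ± 15.3 TPM. Lepr (15.2 ± 9.44 TPM) and Plin4 (5.24 ± 2.72 TPM) were lower, with ranges of 4.98 to 23.6 and 2.23 to 7.54 TPM that overlap. On chow the order changed, with Plin2 at 437 ± 185 TPM above G0s2 at 125 ± 94.2 TPM and Apoa4 at 88.3 ± 32.2 TPM, and the last 2 overlapped.

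Other genes of the same pathways were read from 10 lists, which like the members were drawn up with results of these data known. Of all 13560 genes, 1155 rose and 972 fell on 2% iron against 50 ppm, and 2083 rose and 1943 fell with cellulose. Among lipoprotein genes, 1 of 10 rose and 2 fell on 2% iron against 50 ppm. Apoc3, the inhibitor of lipoprotein lipase that lies in the same gene cluster as Apoa4, rose by 1.05 ± 0.163 (740.6 ± 76.0 to 1533 ± 260 CPM; edgeR, adjusted p = 0.00129). Apoa1, the main protein of high-density lipoprotein and another gene of that cluster, fell by 0.86 (SE 0.130) on the log2 scale (7950 ± 721.5 to 4373 ± 359 CPM; adjusted p = 0.00112). Apoa5, also in the cluster, was at 1296 ± 188.4 CPM on 50 ppm and 1517 ± 272 CPM on 2% iron (log2 difference 0.23, adjusted p = 0.380). Apoa2 fell by 0.59 (adjusted p = 0.00309). Apoa4 thus rose beside a neighbour that rose, one that fell and one that did not pass.

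Of 17 other droplet genes tested, Hilpda (1.28), an inhibitor of the same lipase as G0s2, rose, and Fitm1 (-1.05) and Cideb (-0.36) fell. Of 11 genes of triglyceride synthesis, only Gpat4, which adds the first acyl chain to glycerol phosphate, passed (-0.77, adjusted p = 0.00119). Of 15 genes of fatty acid uptake and binding, 1 rose and 6 fell, among them the acyl-CoA synthetases Slc27a2 (-1.02) and Acsl1 (-0.96) and the binding proteins Fabp1 (-1.01) and Fabp2 (-1.16). Of 17 known targets of PPARA, the receptor that drives hepatic fat burning, 10 fell and 0 rose, beside 972 and 1155 of all 13560 genes. The targets had a median of -0.68 where all genes had 0.01. Acaa1b, a peroxisomal thiolase, fell the furthest of them, by 1.88 (adjusted p = 6.49e-04), and Cpt1a, the gate of mitochondrial fat oxidation, fell by 0.92. Cd36, Plin2 and Plin5 are also known as PPARA targets, and none of them passed the test in this comparison. Against 500 ppm 7 of these 17 fell, among them again Acaa1b (-1.81) and Cpt1a (-0.82), and 0 rose. In that comparison 644 of 13560 genes fell and 894 rose.

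Of 9 genes of leptin receptor signalling, Leprot rose by 0.80 (adjusted p = 0.00425), and Ptpn1, a phosphatase that damps the receptor, rose by 0.45 (adjusted p = 0.00618). Lepr itself, given above, did not. With cellulose, 3 of the 9 were higher and 2 lower, including Leprot (0.90), Stat3 (0.55) and Irs1 (-1.26). Among regulators of lipid genes, Ppard rose (0.88) and Cebpa fell (-0.40) on 2% iron, and Pparg rose (0.85, adjusted p = 0.0342) in the cellulose comparison, in which Vldlr, a receptor for triglyceride-rich particles, also rose (2.18) and Hilpda rose (1.51). Of 12 genes that respond to fasting or feeding, Igfbp1 rose (1.47) and Pck1 fell (-0.65) on 2% iron, and Pdk4 was at 16.2 ± 9.68 against 16.1 ± 5.89 CPM. Of 14 clock genes, Nr1d1 (-1.24) and Hlf (-0.64) fell on 2% iron, and with cellulose Ciart (3.64), Per1 (1.05) and Cry2 (0.89) rose and Clock fell (-1.09). The part of feeding state and time of day in the members' values was not tested.

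Markers of other cells moved with the 2% iron diets. Macrophage markers summed to 525 to 550 CPM on 2% iron and to 514.4 to 785 CPM with cellulose, against 125 to 212 CPM on 50 ppm, 116 to 241 CPM on 500 ppm and 143 to 182 CPM on chow. Of these 10 markers 8 rose on 2% iron against 50 ppm, where 1155 of 13560 genes did. Endothelial markers summed to 361 to 383.7 CPM against 244.05 to 301 CPM on 50 ppm, with 2 of 7 higher. Erythroid markers summed to 229 to 346 CPM against 62.6 to 100.3 CPM. Of the 4 of them tested, the globin genes Hba-a1 (3.66) and Hbb-bs (3.83) and Slc4a1 (4.15) rose, and Alas2, whose enzyme makes the first step of heme in red cells, fell (-1.51, adjusted p = 0.00170). In bulk liver, more cells of a type and more RNA per cell cannot be told apart, and the part of these cells in the rise of Apoa4, Plin4 and Cd36 was not tested. Adipocyte markers summed to 19.6 to 45.6 CPM on 2% iron, 19.9 to 48.1 CPM with cellulose and 13.8 to 16.6 CPM on 50 ppm. Of the 3 adipocyte markers with enough counts to test, Fabp4 rose on both 2% iron diets, and Cfd (complement factor D) fell with cellulose, from 0.992 ± 0.479 CPM on 50 ppm to 0 counts in all 3 libraries. Lep had 0 counts in all 15 libraries, Adipoq had 0 in 11 and at most 2 in the others, and Plin1 had at most 12. Of the 7 enterocyte markers Alpi had 0 counts in all 15 libraries, Sis at most 1, and Vil1 and Cdh17 at most 4. The other 3 were tested, and Fabp2 alone passed, lower on both 2% iron diets than on 50 ppm. Slc5a1 was at 0.566 to 1.93 CPM, Fabp2 at 23.2 to 66.4 CPM and Anpep at 135 to 191 CPM, and the part of such cells in the level of Apoa4 was not tested.

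Across the 114 strains, all on 2% iron, every member but Cidea and Mogat1 was found in every strain. Apoa4 ran from 564.7 CPM in CE/J through a median of 3073 to 17816 CPM in LP/J. Lepr ran from 3.32 CPM in KK/HlJ through 46.7 to 594 CPM in BXD38/TyJ. The lowest strain for Lepr held as little as the chow livers of the diet study (3.50 to 5.31 CPM), in tables that were normalised separately.

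Plin4 ran from 2.45 CPM in SWR/J through a median of 29.1 to 156.5 CPM in AXB15/PgnJ. Plin5 ran from 21.5 CPM in BXD14/TyJ through 46.8 to 226 CPM in BXD38/TyJ, and Plin2 from 45.8 CPM in NZB/BlNJ through 382 to 1288 CPM in BXD38/TyJ. Cidec ran from 0.765 CPM in NON/ShiLtJ through 3.08 to 39.1 CPM in BXD38/TyJ. The same strain, BXD38/TyJ, was thus at the top for 4 members. Cd36 ran from 22.2 CPM in BXH14/TyJ through 77.2 to 239 CPM in BXA11/PgnJ, and G0s2 from 1.80 CPM in BXD27/TyJ through 29.05 to 230 CPM in BALB/cByJ. Mogat1 was at 0 counts in 22 strains and highest, at 3.98 CPM, in AXB5/PgnJ, and Cidea was at 0 in 81 strains and never above 0.485 CPM.

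**Figure D3:**
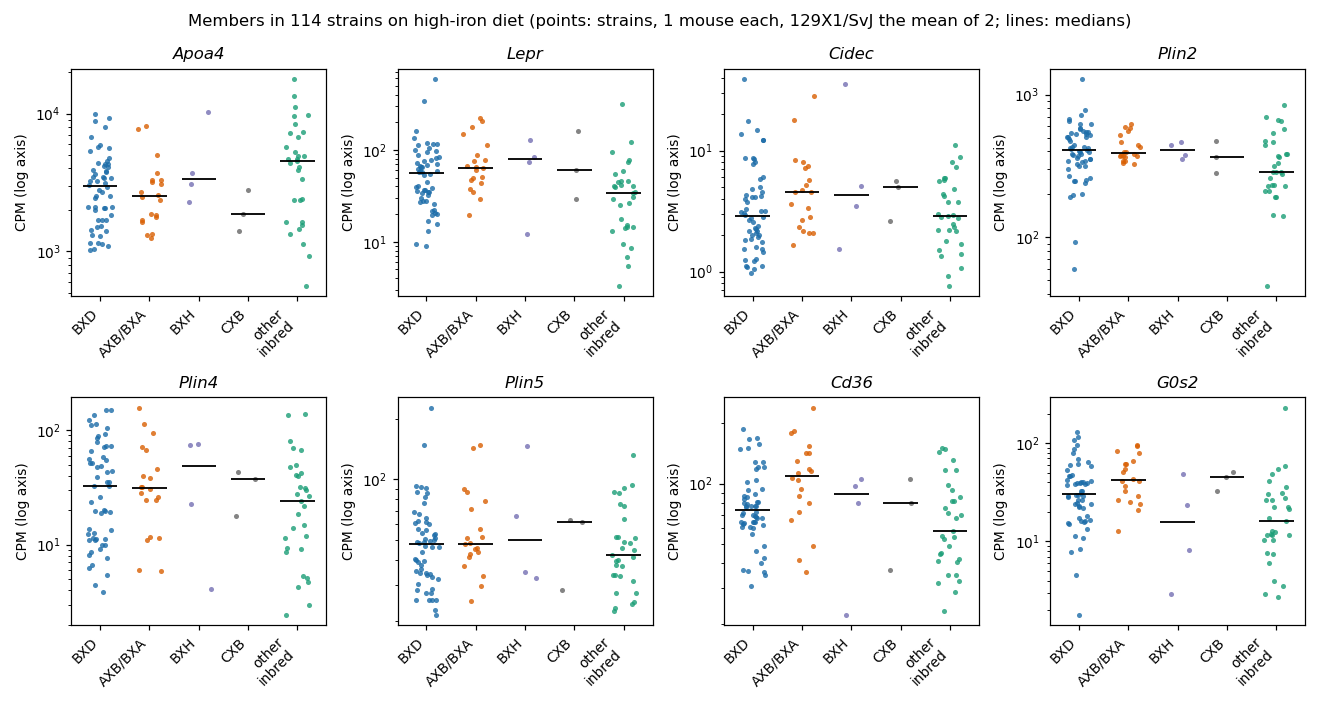
CPM of the same 8 members in each of the 114 strains (points, log axis) by strain family, with the family median as a line. Apoa4 spreads from 564.7 to 17816 CPM and is highest among the other inbred strains, while Lepr has its lowest strain there.

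The log2 SD between strains was 1.45 for Plin4, 1.26 for Lepr, 1.26 for G0s2, 1.09 for Cidec and 0.97 for Apoa4, where the median gene had 0.32. Part of that spread is also seen between mice of 1 diet group. The ratio of the SD between strains to the SD within the diet groups was 2.46 for Apoa4, 2.21 for Plin4, 1.81 for Lepr, 1.80 for Cd36, 1.68 for Plin5, 1.55 for Cidec, 1.53 for Plin2 and 1.35 for G0s2. Over 12343 genes the median ratio was 1.69, so Apoa4, Plin4, Lepr and Cd36 stood above it and Plin5, Cidec, Plin2 and G0s2 below. The 2 mice of 129X1/SvJ, the one strain with a second mouse, held 5866 and 5629 CPM of Apoa4 but 60.7 and 19.9 CPM of Lepr and 21.4 and 61.2 CPM of G0s2.

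Parents of the recombinant families differed in several members, each as 1 mouse. Apoa4 was at 7357 CPM in C57BL/6J, 1639 in DBA/2J, 1567 in A/J, 2369 in C3H/HeJ and 1126 in BALB/cByJ. BXD strains ran from 1018 to 9992 CPM and AXB/BXA strains from 1263 to 8056 CPM, so both families held strains below and above both of their parents. Lepr was at 41.6 CPM in C57BL/6J, 13.3 in DBA/2J and 121 in A/J. Plin4 was at 40.6 CPM in C57BL/6J and 4.26 in DBA/2J, and G0s2 was at 16.3 CPM in C57BL/6J and 230 in BALB/cByJ.

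Between families, 0 of 8 members passed for BXD against AXB/BXA strains, where 11.6% of all genes passed in edgeR and 3472 genes had an unadjusted p under 0.05. Cd36 came nearest, with family medians of 74.2 and 109 CPM (log2 difference -0.44 ± 0.158, n = 56 and 20 strains, adjusted p = 0.0574). It passed without the library labelled BXD65/RwwJ (-0.46, adjusted p = 0.0421) and with substrains reduced to 1 each (-0.53, adjusted p = 0.0226), and its adjusted p over the alternatives lay between 0.0226 and 0.141. Mogat1, too low for the main test, had family medians of 0.216 and 0.994 CPM. With no filter on low counts edgeR called it lower in the BXD strains (-1.72, adjusted p = 4.74e-04), DESeq2 did so too (-1.75, adjusted p = 3.82e-04), and limma on TPM also did (-0.72, adjusted p = 0.00668).

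Against the 31 other inbred strains, 1 of 8 members passed where 17.7% of all genes did and 10.4% were lower. Apoa4 was lower in the BXD strains, with medians of 3006 and 4532 CPM (log2 difference -0.62 ± 0.213, adjusted p = 0.0306), and this call was lost with limma on TPM, which called G0s2 instead (Apoa4 -0.42, adjusted p = 0.261), the highest of adjusted p values that ran from 0.0251 to 0.261. Lepr medians were 56.4 and 33.6 CPM (0.68 ± 0.291, adjusted p = 0.0941). Of 10 genes of fatty acid synthesis, 5 were higher in the BXD strains and 0 lower, beside 995 and 1413 of 13624 genes. Among the 5 were Fasn (0.79), Elovl6 (0.78) and Acss2 (0.81). Strains within a family share parental genomes, so they are not fully independent.

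Levels of members went together across strains to different degrees. Pearson's r of log2 CPM was computed for 36 pairs of 9 members over the 114 strains, with a permutation p of 100000 resamples adjusted over the 36. Cidea, at 0 in most strains, was given no r. Among the 28 pairs of the 8 members with 1 CPM or more on average, 19 passed, all with a positive r of at least 0.235, and the median r was 0.32. Of all 72270253 pairs of 12023 named protein-coding genes at that level, 26.4% had an r at least as far from 0 and 13.4% a positive one. The median r of these pairs was -0.001. Genes with only a provisional name were left out of them. Within families of strains 14 pairs passed in BXD, 12 in AXB/BXA and 3 in the other inbred strains, and 17 passed when family means were taken out. The strains share a diet and a tissue, and their libraries differed in depth.

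**Figure D4:**
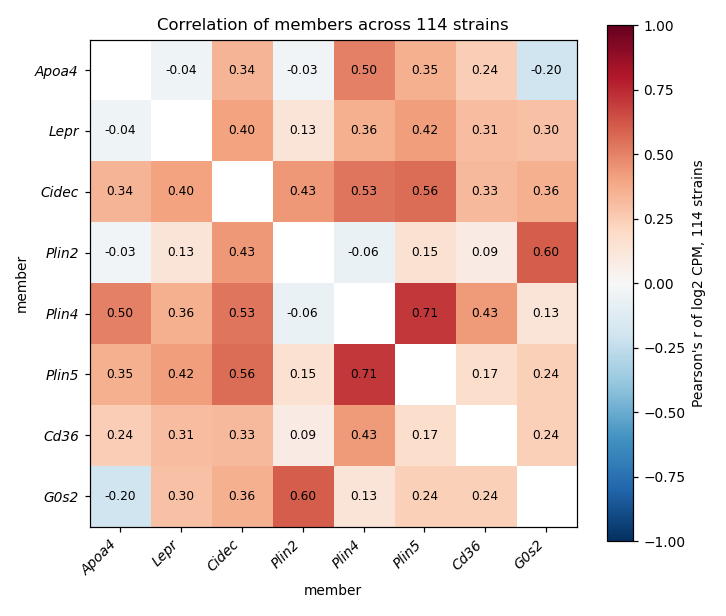
Pearson's r of log2 CPM over 114 strains for each pair of 8 members, red for positive and blue for negative values. Plin4 with Plin5 (0.71) and Plin2 with G0s2 (0.60) are the darkest cells, and the row of Apoa4 is near 0 for Lepr and Plin2.

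Plin4 and Plin5, the perilipin neighbours, had the highest r, 0.709 (rho 0.736, adjusted permutation p = 4.5e-05, which is set by the smallest p these resamples can give). It was 0.693 in the BXD, 0.658 in the AXB/BXA and 0.770 in the other inbred strains, and 0.696 without CBA/J and SWR/J, the 2 strains farthest from the Plin4 median. Of 12022 named protein-coding genes ranked by their r with Plin4, Plin5 was number 4. In the diet study the same pair did not move together on the cellulose diet, where Plin4 rose and Plin5 was at 88.5, 87.6 and 81.5 CPM.

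Plin2 and G0s2 followed with an r of 0.603 (rho 0.455, adjusted permutation p = 4.5e-05). The r was 0.610 in BXD and 0.662 in other inbred strains, 0.508 in AXB/BXA strains with an adjusted p of 0.0558, and 0.521 without BXD27/TyJ and NZB/BlNJ. Plin2 and Plin4, both droplet coats, had an r of -0.06 (adjusted p = 0.549). Cidec was tied to more members, with an r of 0.562 to Plin5, 0.532 to Plin4, 0.435 to Plin2 and 0.399 to Lepr.

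Apoa4 was tied most to Plin4, with an r of 0.504 (rho 0.514, adjusted permutation p = 4.5e-05), 0.582 in the BXD, 0.781 in the AXB/BXA and 0.488 in the other inbred strains, and 0.503 without CE/J and LP/J. With Lepr, its companion in the chow comparison, Apoa4 had an r of -0.04 (adjusted p = 0.70). G0s2 differed between families in the values themselves: its r with Apoa4 was -0.20 over all strains (adjusted p = 0.0504) and 0.604 in AXB/BXA strains, and its r with Plin4 was 0.126 over all and 0.715 in AXB/BXA. The difference between families was not tested.

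**Figure D5:**
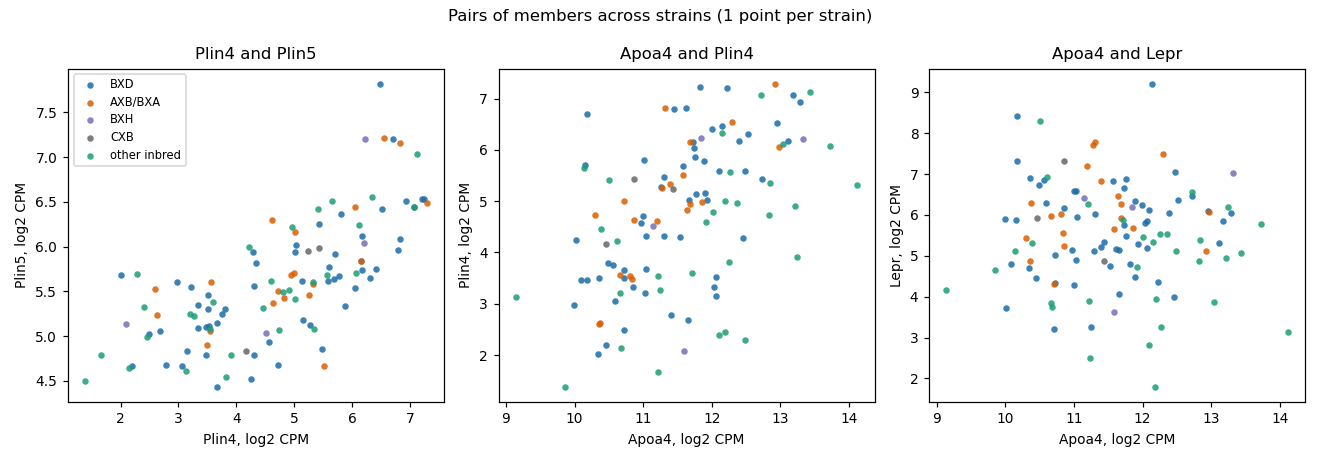
Log2 CPM of 3 pairs of members, 1 point per strain, coloured by strain family. Plin4 and Plin5 rise together (r of 0.709), Apoa4 and Plin4 do so less closely (0.504), and Apoa4 and Lepr form a cloud without slope (-0.04).

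Of the 12022 named protein-coding genes that averaged 1 CPM or more, those nearest to Apoa4 over the 114 strains were Bsg (r of 0.822), Pfkl (0.801) and Ffar4 (0.797). Genes with only a provisional name were not ranked. Bsg encodes basigin, a partner of lactate carriers, Pfkl the liver phosphofructokinase and Ffar4 a receptor for long-chain fatty acids. Nearest to Lepr were Cnst (0.640), Tox (0.639) and Ttc17 (0.614), nearest to Cidec were Acot2 (0.739), Enc1 (0.721) and Pdk4 (0.630), and among those nearest to Plin4 were Bnip3 (0.724) and Ppp2r2d (0.715). The genes named for Lepr thus had a lower r than those named for Apoa4 and Plin4.

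In 3 strains, 3 or more members were among the 5 highest of the 114. BXD38/TyJ had the highest Lepr (594 CPM), Cidec (39.1), Plin2 (1288) and Plin5 (226) and the second highest G0s2 (132), but ranked 31 for Apoa4 (4520 CPM) and 80 for Cd36 (62.3 CPM). BXD22/TyJ had 343 CPM of Lepr, 17.6 of Cidec, 778 of Plin2, 147 of Plin5 and 109 of G0s2, and ranked 107 for Apoa4 (1157 CPM). BXA12/PgnJ had 222 CPM of Lepr, 28.5 of Cidec, 143 of Plin5 and 184 of Cd36. None of these 3 strains was among the 5 highest for Apoa4.

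Genes of the fasting and feeding list were also read in these 3 mice. Pdk4, the kinase that shuts off pyruvate oxidation, was at 385, 356 and 148 CPM, ranks 1, 2 and 4 of the strains, whose median was 8.55 CPM. Igfbp1 was at 2823, 1769 and 1088 CPM (ranks 1, 4 and 7). In the same order of strains Tat ranked 1, 3 and 5, G6pc 1, 3 and 25, Angptl4 1, 3 and 12, and Pck1 2, 10 and 24. Irs2 ranked 1, 5 and 38, Lpin1 1, 48 and 21, and Fgf21 9, 19 and 63. Pnpla3, which rises with feeding, ranked 110, 94 and 54. Srebf1 was the third lowest of all strains in BXD38/TyJ and ranked 107 and 91 in the others. Pdk4 is also 1 of the genes nearest to Cidec, given above. The part of feeding state in these members' levels was not tested. Over all strains, macrophage markers summed to between 198 and 861 CPM and adipocyte markers to between 3.71 and 71.1 CPM, the latter highest in BXH2/TyJ, which held 35.5 CPM of Cidec, and their part in the members' levels was not tested. Without these 3 strains, an exclusion chosen after seeing the values, 18 of the 28 pairs passed. At the other end, SWR/J was among the 5 lowest for Apoa4 (927 CPM), Cidec (0.929), Plin4 (2.45), Plin5 (22.4) and Cd36 (28.6), BXD14/TyJ for Lepr (9.08), Cidec (0.972) and Plin5 (21.5), and NZB/BlNJ for Plin2 (45.8), Plin5 (23.1) and G0s2 (2.91).

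Counts and TPM together give the length of transcript to which a gene's reads were assigned. It was scaled here to annotated lengths, by way of genes with a single annotated transcript. That length was constant for Apoa4, Plin4, Plin5 and G0s2, and it varied for Lepr, Cidec, Cd36 and Plin2. Over the strains it lay between 694 and 1479 bases for Cidec, 1993 and 2787 for Cd36, and 1167 and 1475 for Plin2. In the 13 diet libraries with at least 50 counts of Lepr it lay between 2555 and 4871 bases, and in the strain study between 960 bases in BXH14/TyJ and 5500 bases in BXD70/RwwJ, with a median of 4012. The annotated coding transcripts of Lepr are 208, 3410, 4127 and 5542 bases long, so the mix of forms to which reads were assigned differed between libraries. On 2% iron alone the 3 libraries stood at 3235, 2665 and 4745 bases, so the length differed within a group by as much as between groups.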

How the data were processed

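Liver poly(A) RNA of 130 libraries was sequenced from a stranded mRNA kit, from 20 mg of the large lobe with an RNA integrity number above 8, per the labels' protocols. Reads were quantified by the authors with kallisto 0.46 against mm10, per the submitters' processing notes. The tables deposited by the authors give, per the file headers, an estimated count per gene, made from the reads by kallisto, and TPM. Of nonzero counts 52.4% were not whole in the diet study and 54.1% in the strain study. TPM is scaled for transcript length and for library depth. Its sum over the genes given was 1e+06 in the diet libraries and between 994114 and 997301 in the strain libraries. Estimated counts share reads between near-identical transcripts. They were rounded to whole numbers here, since the planned test assumed counts.

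Members and lists were chosen with earlier results of these data known. Genes passing edgeR's filterByExpr were tested with edgeR 4.0.16 (TMM, quasi-likelihood) in R 4.3.3, with Benjamini-Hochberg adjustment over all genes and a threshold of 0.05. The diet fit held all 15 libraries, and family fits held the 2 families compared, with the strain as replicate and the 2 mice of 129X1/SvJ summed. CPM used TMM library sizes, and log2 CPM a prior count of 2. Correlations used 100000 permutations. Named genes were the 10 members, every called gene of a list up to 8 by size of change (a selection of these is printed), and the 3 genes nearest to each of 4 members; 1 of these, and the ranks of 1 gene of the fasting and feeding list, are not reported here. Marker lists of 9 cell types were summed. Of 6 stellate markers tested 0 were called on 2% iron against 50 ppm, and 1 of 8 exocrine pancreas and 0 of 6 skeletal muscle markers had enough counts to test.

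Alternatives were DESeq2 1.42.0, limma 3.58.1 on log2(TPM + 1) and log2(TPM + 0.1) with a mean TPM of at least 0.1, other filters, only the groups compared, and each library left out. Leaving out BXD38/TyJ, BXD22/TyJ and BXA12/PgnJ was chosen after seeing the data. Scripts were tested on simulated data. No sequence of Cidea is printed.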

Additional observations from a re-analysis of the deposited data

Results flagged for a closer look

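Each member was examined in the 4 BXH strains, the one group of 4 to 10 samples, for a strain far from the others. Cidea was highest in BXH2/TyJ, with 4 counts (0.236 CPM), while the other 3 strains had 0, so that the gap to the nearest strain over the range was 1, above Dixon's 95% critical value for 4 samples. The rate of 1 in 20 behind that value holds for continuous values, and Cidea was at 0 counts in 81 of the 114 strains. A gap of 1 arises whenever 1 of 4 strains alone has counts, so no rate is given here. Both ends of all 10 members were examined. The value rests on 4 counts.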

How the results depend on the processing

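Of the 28 member pairs, 26 kept the sign of their r within BXD strains, and 24 did so within AXB/BXA and within other inbred strains. Log2 changes were followed for members with an unadjusted p under 0.05 in the main edgeR test. Those of listed genes called on either 2% iron diet against 50 ppm were followed too. No direction was reversed among these log2 changes. Among those of members, 11 recomputed values came to pass the threshold, 5 no longer passed and the others kept their side of it. Members not followed are outside this count, such as Mogat1 and, for BXD against other inbred strains, G0s2. With only the 2 groups compared in the fit, 2 members (Apoa4 and Cidec) passed for 2% iron against 50 ppm and 2 against 500 ppm, and DESeq2 also gave 2 against 500 ppm. Leaving out single libraries gave 1 to 2 members in both comparisons, 2 to 3 against chow, 3 to 4 for 2% iron with cellulose against 50 ppm, 0 to 1 for the cellulose diet against 2% iron and 1 to 2 for 500 ppm against chow. For 500 ppm against chow, 1 member passed with limma on log2(TPM + 1) and 1 on log2(TPM + 0.1), both without Lepr, and 1 without chow replicate 1 or 2. The counts against chow rest on the libraries that placed Apoa4 and Lepr on the list, and nothing is read from them. For the cellulose diet against 2% iron, 1 passed with no filter on low counts and 2 with DESeq2. The difference of Lepr between chow and 50 ppm was -2.42 on log2(TPM + 1) and -2.92 on log2(TPM + 0.1), where the pseudocount shrinks low levels, and without single libraries it ran from -3.89 to -3.27, with -3.54 to -3.03 for Apoa4. For BXD against AXB/BXA strains, 1 member (Mogat1) passed with no filter, 1 with DESeq2 and 1 with limma, and 1 (Cd36) passed without BXD65/RwwJ and 1 with substrains reduced. Within AXB/BXA strains 12 pairs of members passed and within other inbred strains 3. The cause of these changes was not tested.

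Of 114 results on listed genes 50 no longer passed in at least 1 alternative, among them Fabp4 (13 alternatives), Acaca (10), Nr1d1 (9), Fitm1 (7), Pck1 (7), Cebpa (7), Hilpda (6), Igfbp1 (6), Hlf (6), Acsl1 (5), Fabp1 (4) and Cideb (2) on 2% iron against 50 ppm, and Pparg (7), Per1 (5), Ciart (4), Stat3 (3) and Cry2 (3) with cellulose. Counts over all genes moved as well: 2127 genes for 2% iron against 50 ppm became 1053 and 1021 with limma, and 1003 to 2333 without single libraries. For 2% iron with cellulose 4026 became 2515 and 2419 with limma. Against 500 ppm 1538 became 924 with only the 2 groups and 764 and 744 with limma and 788 to 2204 without single libraries, the lowest without 500 ppm replicate 1 and the highest without 500 ppm replicate 2, and against chow 3087 became 1790 and 1825. For 500 ppm against chow 80 became 24 with only the 2 groups, 286 with DESeq2, 34 and 29 with limma and 15 without chow replicate 2. For the cellulose diet against 2% iron 11 became 222 with DESeq2, 51 with no filter and 212 without the third cellulose library, and for BXD against AXB/BXA 1606 became 1015 with limma. No paired analysis was possible because the labels carry no replicate numbers shared between groups. Mogat1, Cidea and Cidec had the fewest counts of the members in the diet study, and the part of depth in their results was not tested.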
